A study of Mus musculus with 28 samples.

Results

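The onset of rod genes between P6 and P4, postnatal days 6 and 4 of the mouse, was examined in rod photoreceptors sorted from the retina. Members were the arrays titled P6 (replicates 1 to 4) and those titled P4 (replicates 1 to 4), 8 of 28 arrays in all. Both groups were green cells from wild-type retinas of C57Bl/6 mice carrying Nrlp-GFP, a transgene in which the promoter of Nrl, the gene of the transcription factor that directs cells to the rod fate, drives green fluorescent protein. By the labels the P6 and P4 groups differed in age alone, and both carried the transgene and had been dissociated with papain and collected by flow cytometry. The labels state that only sorts with a purity of at least 97% were used. Total RNA was amplified from an input of 5 ng and hybridised to exon arrays. The study follows these cells over 7 ages. Nothing in the labels says that replicates came from separate animals or litters, so the p-values measure only the spread between these samples, which may be technical.

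Many rods of the mouse are born around birth. A new rod turns on Nrl and then spends days without an outer segment before its light-sensing machinery is assembled. Light starts a cascade that activates the G protein transducin, which in turn activates a phosphodiesterase that breaks down cyclic GMP and so closes the cation channel of the outer segment. Guanylyl cyclases restore cyclic GMP, and a ribbon synapse at the other end of the cell passes the signal to bipolar cells. Mice open their eyes only later, so P6 and P4 both fall before vision.

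Values were log2 RMA levels, 1 for each of 14860 genes that could be named by 1 symbol. A gene was called, and is said to have risen or fallen, where it passed an adjusted p of 0.05 and differed by at least 2-fold in limma's moderated test, fitted over all arrays with a mean for each age. Its SE and p thus rest on 1 spread per gene shared over all 7 ages, not on the 8 arrays alone. Levels of different genes come from different probes and are not compared. Array medians lay between 6.87 and 7.00. P6 replicate 1 stood apart. Its correlation with the mean of the other P6 arrays was 0.971, against 0.980 to 0.986 for the other P6 arrays and 0.985 to 0.991 for the P4 arrays. In a principal component analysis of the 8 arrays, the first component (29.4% of the variance) set P6 replicate 1 at 45.5 and the other 7 arrays between -11.7 and 7.66. The second (19.4%) placed P6 replicates 2, 3 and 4 between -23.8 and -13.1, and P4 arrays between 2.66 and 17.1, with P6 replicate 1 at 5.90 among the P4 arrays. The calls below are therefore given with and without that array.

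Of the 14860 genes, 72 rose at P6 (0.485%) and 12 fell (0.0808%). In 66 of the 72 risen genes every P6 array lay above every P4 array, a separation found in 3.82% of all genes. The 72 were called on these same arrays, so that count describes the calls and carries no test. Without P6 replicate 1, 57 genes rose (0.384%) and 24 fell (0.162%). Those 57 held 52 of the 72, and the 24 held 11 of the 12. The median difference over all genes was 0.03 on the log2 scale.

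Rod phototransduction genes were higher at P6. Of 22 measured, 4 rose: Gucy2f, Pde6a, Gnat1 and Gngt1. A further 11 passed the adjusted p but not the fold, which made 15 of 22 that passed the adjusted p, against 1.83% of all genes in that direction. None was lower by that test. The median difference of the list was 0.50, beside 0.03 over all genes. With P6 replicate 1 left out the median was 0.56, 15 of 22 again passed the adjusted p (1.25% of all genes), and Grk1 joined the 4. In a fit on the 8 arrays alone, which estimates the spread from these arrays without the other ages, 3 of 22 passed the adjusted p. These were Gucy2f, Pde6a and Gngt1, and 0.296% of all genes passed as higher.

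Gucy2f, which encodes one of the retinal guanylyl cyclases, had levels of 7.73, 7.65, 6.20 and 7.54 in the P6 arrays, against 4.97, 5.39, 5.11 and 5.64 in the P4 arrays. All P6 arrays lay above all P4 arrays, with P6 replicate 3 well below the other 3. The difference was 2.00 ± 0.23 (log2, SE), 4.01-fold, with an adjusted p of 3.1e-06. It was 1.85 without P6 replicate 1.

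Pde6a, the alpha catalytic subunit of the rod phosphodiesterase, had levels of 7.61, 8.37, 7.63 and 8.67 at P6, against 6.47, 6.81, 6.17 and 6.39 at P4. The groups did not overlap, and P6 replicates 2 and 4 were the high ones. It rose by 1.61 ± 0.17 (3.05-fold, adjusted p 7.76e-07), or by 1.76 without P6 replicate 1. Its partner Pde6b, the beta subunit, had 11.60, 11.83, 11.56 and 11.71 at P6, against 11.26, 11.07, 11.01 and 11.34 at P4. That difference of 0.51 passed the adjusted p (0.00073) and was under 2-fold. The inhibitory subunit Pde6g differed by 0.85 (adjusted p 0.00429).

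Gnat1, the alpha subunit of rod transducin, had levels of 8.97, 9.30, 8.65 and 9.13 at P6, against 8.25, 7.02, 8.19 and 8.12 at P4. The groups did not overlap, but P4 replicate 2 lay far below the other P4 arrays. It rose by 1.11 ± 0.18 (2.17-fold, adjusted p 0.000294), and by 1.13 without P6 replicate 1. Leaving out P4 replicate 2 took the difference below the fold threshold. Gngt1, the gamma subunit, had levels of 10.11, 10.00, 10.51 and 10.46 at P6, against 9.29, 8.92, 9.33 and 9.49 at P4. It rose by 1.01 ± 0.11 (2.02-fold, adjusted p 2.14e-06), at the threshold of the fold, and by 1.07 without P6 replicate 1. The beta subunit Gnb1, which other cells also use, differed by 0.38 (adjusted p 0.00074).

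Several genes whose products end the light response passed the adjusted p, below the fold threshold. Grk1, a G protein-coupled receptor kinase of photoreceptors, had levels of 8.68, 9.24, 9.09 and 9.36 at P6, against 8.42, 8.11, 7.67 and 8.22 at P4, a difference of 0.99 ± 0.17. Without P6 replicate 1, the lowest P6 array, it was 1.13 and was called. Rgs9 and Gnb5, which together speed the shut-off of transducin, differed by 0.63 (adjusted p 0.000214) and 0.70 (adjusted p 2.2e-05), while Rgs9bp, the anchor of the same complex, differed by -0.18 (adjusted p 0.869). Sag, rod arrestin, differed by 0.50 (adjusted p 0.000294). Cngb1, a subunit of the rod cation channel, differed by 0.55 (adjusted p 0.00513). The members that did not pass included Gucy2e, the other retinal guanylyl cyclase, at 0.16, the cyclase activators Guca1a at 0.39 and Guca1b at 0.24, and Pdc, phosducin, at 0.03.

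The visual cycle, which regenerates the light-sensing pigment, contributed Rdh12 and Abca4, 2 of 7 measured members, where 0.485% of all genes rose. Rdh12, a retinol dehydrogenase of the inner segment, had levels of 9.57, 9.89, 8.96 and 9.77 at P6, against 7.45, 8.78, 7.87 and 8.03 at P4. It rose by 1.52 ± 0.19 (2.86-fold, adjusted p 1.08e-05). Abca4, the transporter of disc rims that clears retinal, had 8.90, 9.30, 8.63 and 9.06 at P6, against 7.89, 7.80, 7.59 and 8.10 at P4, a rise of 1.13 ± 0.13 (2.18-fold, adjusted p 2.77e-06). The groups did not overlap in either gene. The differences were 1.51 and 1.15 without P6 replicate 1. Rbp3, the retinoid carrier between photoreceptors and the pigment epithelium, differed by 0.03 (adjusted p 0.97). The list's median was 0.06, close to that of all genes.

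**Figure D1:**
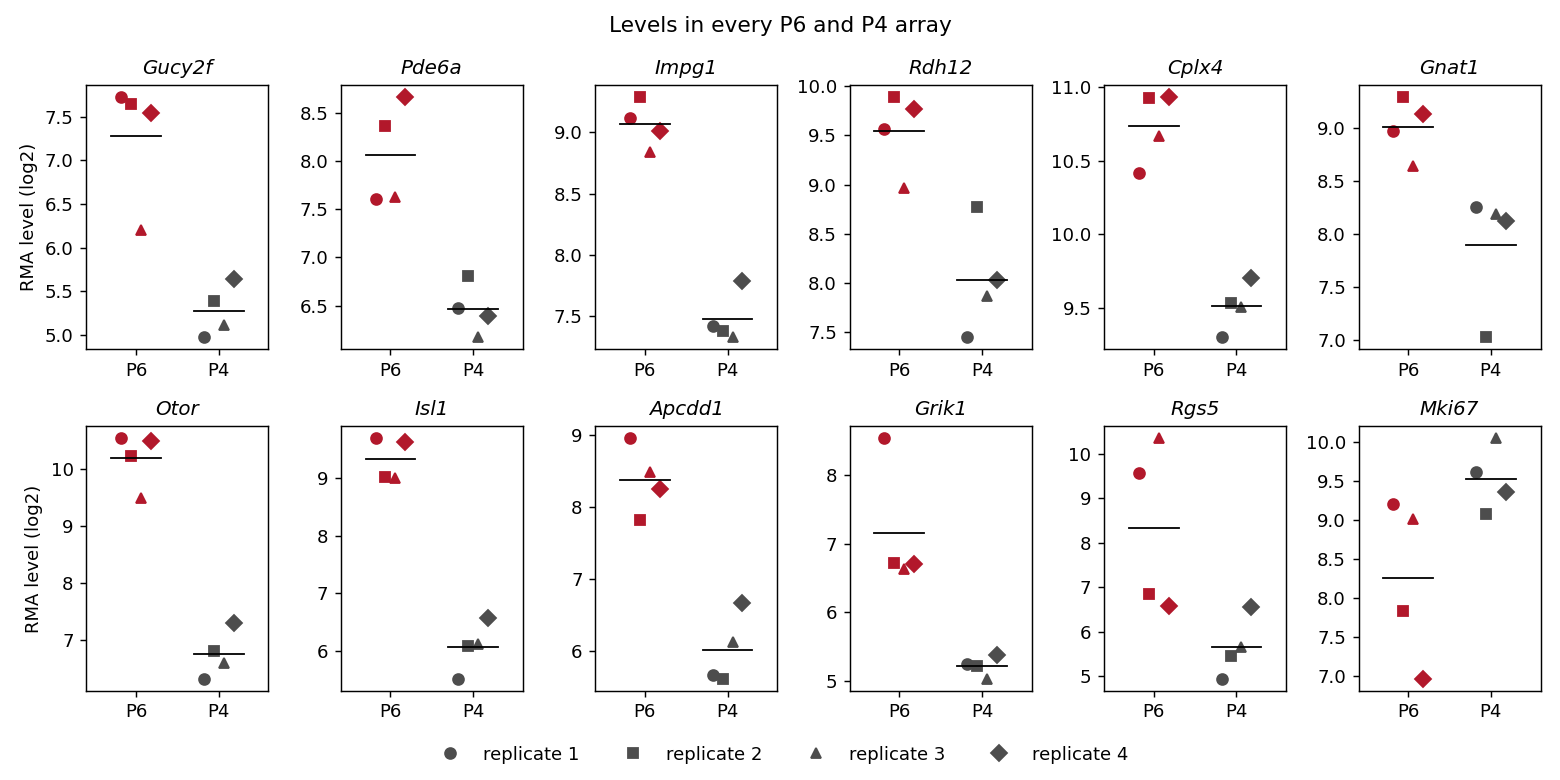
RMA levels (log2, vertical axes that differ between panels and do not start at 0) of 12 genes in every P6 array (left in each panel) and P4 array (right); symbols mark the replicate number and the bar is the mean. In the upper row the 6 rod genes lie higher in every P6 array than in any P4 array, while in the lower row Grik1 at 8.54 in P6 replicate 1, Rgs5 and Mki67 spread widely among the P6 arrays.

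Upstream sequence is shown for 4 of these rod genes, and for Isl1 described below, because Nrl acts on such genes together with the homeodomain factor Crx. The sequences are the 250 bases before the gene start in RefSeq's promoter table (GRCm38.p6), 5′ to 3′ on the gene's strand. Capitals mark the letters TAATCC or GGATTA, the core of Crx-type sites on either strand, or TGCTGA or TCAGCA, a part of the sites of Nrl and related factors.
Gucy2f (chrX:142196937-142197186, minus strand): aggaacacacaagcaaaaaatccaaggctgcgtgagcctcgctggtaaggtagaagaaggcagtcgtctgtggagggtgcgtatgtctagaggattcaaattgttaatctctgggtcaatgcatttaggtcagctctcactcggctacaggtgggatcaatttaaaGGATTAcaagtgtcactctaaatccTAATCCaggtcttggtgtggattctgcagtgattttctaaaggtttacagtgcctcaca
Gngt1 (chr6:3993758-3994007, plus strand): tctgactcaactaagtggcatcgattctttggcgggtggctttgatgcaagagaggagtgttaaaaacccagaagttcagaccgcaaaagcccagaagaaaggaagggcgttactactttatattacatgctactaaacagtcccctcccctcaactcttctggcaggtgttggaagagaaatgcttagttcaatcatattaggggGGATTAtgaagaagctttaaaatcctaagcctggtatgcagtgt
Abca4 (chr3:122044210-122044459, plus strand): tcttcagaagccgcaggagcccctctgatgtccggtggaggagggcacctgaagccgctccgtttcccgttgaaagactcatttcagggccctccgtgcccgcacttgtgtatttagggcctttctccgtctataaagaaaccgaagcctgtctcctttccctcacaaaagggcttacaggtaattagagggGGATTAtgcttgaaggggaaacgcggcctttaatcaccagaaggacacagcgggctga
Rdh12 (chr12:79208663-79208912, plus strand): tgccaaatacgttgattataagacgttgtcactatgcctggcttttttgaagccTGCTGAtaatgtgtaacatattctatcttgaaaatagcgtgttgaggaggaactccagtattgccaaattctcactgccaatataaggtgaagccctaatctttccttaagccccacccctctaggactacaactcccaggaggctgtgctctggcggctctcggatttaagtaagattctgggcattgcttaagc
Isl1 (chr13:116309689-116309938, minus strand): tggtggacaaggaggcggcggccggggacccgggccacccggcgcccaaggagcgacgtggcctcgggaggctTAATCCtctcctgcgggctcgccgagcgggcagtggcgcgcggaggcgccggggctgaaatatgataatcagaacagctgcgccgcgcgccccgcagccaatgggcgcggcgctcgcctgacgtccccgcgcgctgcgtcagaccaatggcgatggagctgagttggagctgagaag
Among the 10 risen genes of the rod lists, 7 had a window, and 3 of these (Gucy2f, Gngt1 and Abca4) held TAATCC or GGATTA, against 6.64% of the 11894 tested genes with a window. Gucy2f held it at 2 places, 84 and 59 bases before the start. In Abca4 it lay 58 and in Gngt1 44 bases before the start. The Nrl-type letters TGCTGA or TCAGCA were in 1 of the 7, Rdh12, against 16.4% of tested genes. The windows of Impg1, Cacnb2 and Slc17a7 held neither motif and are not printed, so the rod windows printed are those with a match. The motifs do not overlap each other here. Of all 72 risen genes, 53 had a window, 10 with the first motif (18.9%) and 13 with the second (24.5%). Only 7 windows stand behind the rod counts, and a match is a description of letters, not of binding. Gnat1, Pde6a and Cplx4 had no window used here.

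Of 22 outer segment and cilium genes measured, 5 passed the adjusted p as higher (1.83% of all genes did), also without P6 replicate 1, and 1 of them rose, Impg1, which encodes a proteoglycan of the matrix around photoreceptors. It had levels of 9.12, 9.29, 8.84 and 9.01 at P6, against 7.42, 7.38, 7.33 and 7.78 at P4, with a gap between the groups of more than the range within either. The rise was 1.59 ± 0.15 (3.004-fold, adjusted p 2.17e-07), and 1.57 without P6 replicate 1. Prph2, the disc rim protein peripherin, differed by 0.54 (adjusted p 0.000214), and the microtubule protein genes Rp1 by 0.39 (adjusted p 0.0087) and Rp1l1 by 0.76 (adjusted p 0.0069). Fam161a, which encodes a ciliary protein, differed by 0.48 (adjusted p 0.0153). Rom1 at 0.07, Prom1 at 0.10, Tulp1 at -0.00 and Rpgrip1 at 0.05 did not pass. The list's median was 0.10.

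At the synapse, 3 of 21 measured ribbon synapse genes rose, against 0.485% of all genes: Cacnb2, Cplx4 and Slc17a7. Cacnb2, the beta subunit of the calcium channel at the terminal, had levels of 9.51, 9.71, 9.27 and 9.18 at P6, against 8.01, 8.12, 8.28 and 8.34 at P4, a rise of 1.23 ± 0.11 (2.34-fold, adjusted p 5.77e-08). Cplx4, a complexin of ribbon synapses that regulates vesicle fusion, had 10.42, 10.92, 10.66 and 10.93 at P6, against 9.30, 9.54, 9.51 and 9.71 at P4, a rise of 1.22 ± 0.10 (2.33-fold, adjusted p 3.64e-08). Neither gene's groups overlapped. Slc17a7, the transporter that fills vesicles with glutamate, had 9.50, 9.87, 9.24 and 9.35 at P6, against 8.55, 8.84, 8.21 and 8.23 at P4, a rise of 1.03 ± 0.13 (2.05-fold, adjusted p 1.22e-05). The 3 differences were 1.20, 1.33 and 1.03 without P6 replicate 1, and all were called. A further 3 passed the adjusted p and not the fold, Mpp4 at 0.64 (adjusted p 0.0009), Nrxn3 at 0.60 (adjusted p 0.017) and Dlg4 at 0.48 (adjusted p 0.029), which made 6 of 21, and 4 without P6 replicate 1. The scaffold genes Bsn at 0.03, Pclo at -0.18 and Rims2 at -0.06 did not pass, and Egflam, pikachurin of the synaptic cleft, differed by -0.46 (adjusted p 0.0241). Without P6 replicate 1 Egflam differed by -0.44, and 0 of the 21 were lower by limma's adjusted p. The list's median was 0.17.

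The transcription factors of the rod gave no call. Of 18 measured regulators 0 were called in limma's test, while 2 were higher and 6 lower at an unadjusted p under 0.05, and the list's median was -0.04. Nrl had levels of 9.65, 9.98, 9.79 and 9.88 at P6, against 9.87, 9.82, 9.80 and 9.79 at P4, a difference of 0.00 ± 0.08. Crx differed by -0.00 ± 0.10, and Otx2, which acts upstream of Crx, by -0.22 (adjusted p 0.198). Prdm1, which keeps young photoreceptors from the bipolar fate, had 10.37, 10.31, 10.63 and 10.60 at P6, against 11.06, 10.84, 10.85 and 10.84 at P4. Its P6 arrays all lay below its P4 arrays, and the difference of -0.42 was under 2-fold (adjusted p 0.0496). Without P6 replicate 1 the difference was -0.38 (adjusted p 0.13). Esrrb, an orphan nuclear receptor of rods, differed by 0.43 (adjusted p 0.0363), and Rxrg, a retinoid receptor of cones, by -0.75 (adjusted p 0.0357). Without P6 replicate 1 these differences were 0.48 and -0.67, and Rxrg did not pass the adjusted p. In that fit 1 of the 18 regulators still passed the adjusted p as lower. Without replicates 1 and 3, 1 of the 18 was called lower, as were 0.276% of all genes.

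Rod genes with a cone counterpart were set beside it. Gnat2, the cone transducin alpha subunit, had levels of 9.90, 7.97, 9.42 and 8.62 at P6, against 9.67, 9.04, 8.77 and 8.97 at P4, groups that overlap widely (difference -0.13, adjusted p 0.957). Pde6c, the cone phosphodiesterase, differed by 0.73 (adjusted p 0.147), and Gngt2, the cone gamma subunit, by -0.29 (adjusted p 0.69). Of 16 cone markers measured 0 were called in limma's test, with 4 higher and 2 lower at an unadjusted p under 0.05. Cngb3 (-0.66, adjusted p 0.0299) and Rxrg passed the adjusted p alone, both lower, as did 0.532% of all genes in that direction. Without P6 replicate 1, 1 of the 16 passed as lower, Cngb3 (-0.72, adjusted p 0.0295). Opn1sw, the short-wavelength opsin, had 10.56, 9.30, 9.90 and 9.57 at P6, against 10.71, 10.69, 10.14 and 9.70 at P4 (-0.47, adjusted p 0.699). Whether rod genes differed from their cone counterparts in their change was not tested. The summed linear levels of the cone markers were 4466 to 6947 at P6, highest in replicates 1 and 3, and 5285 to 7613 at P4.

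The largest rises were not in rod genes. Of the 72 risen genes 10 belonged to the lists of phototransduction, outer segment, ribbon synapse and visual cycle, 9 to the marker lists of other cell types, and 53 to neither. Otor, whose product otoraplin is a secreted protein first known from the cochlea, had levels of 10.54, 10.24, 9.50 and 10.49 at P6, against 6.32, 6.81, 6.59 and 7.30 at P4. No P6 array came near a P4 array, and the difference was 3.32 without P6 replicate 1. Isl1, a homeodomain factor of bipolar, amacrine and ganglion cells, had 9.69, 9.01, 8.997 and 9.63 at P6, against 5.52, 6.08, 6.11 and 6.57 at P4. Its difference was 3.26 ± 0.26 (adjusted p 1.36e-08), and 3.14 without P6 replicate 1. As printed above, its window held TAATCC 177 bases before the start. Isl1 was the 1 of 7 risen markers of other cells with a window that held TAATCC or GGATTA (14.3%), against 6.64% of tested genes.

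Some bipolar markers rose with Isl1. Of 19 measured, 4 rose (0.485% of all genes did): Isl1, Vsx1, Grik1 and Scgn. In all, 6 passed the adjusted p (1.83% of all genes), 7 had every P6 array above every P4 array (3.82%), and the median was 0.31. In the 8 arrays alone 2 passed the adjusted p. Vsx1, a homeodomain factor of cone bipolar cells, had levels of 6.78, 6.69, 6.44 and 6.25 at P6, against 5.42, 5.00, 5.25 and 5.39 at P4, a rise of 1.28 ± 0.17 (adjusted p 2.27e-05). Grik1, a kainate receptor of OFF bipolar cells, had 8.54, 6.72, 6.63 and 6.70 at P6, against 5.24, 5.21, 5.03 and 5.38 at P4. P6 replicate 1 was far above the other 3, yet these too lay above all P4 arrays. The difference was 1.93 with that array and 1.47 without it (adjusted p 0.000492). Scgn, a calcium sensor of cone bipolar cells, had 7.57, 5.66, 6.88 and 7.02 at P6, against 5.48, 5.24, 5.55 and 5.39 at P4, and was not called in the absence of P6 replicate 1 (1.10, adjusted p 0.117).

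The genes that serve the light response of ON bipolar cells differed by less. Grm6, their glutamate receptor, differed by 0.55 (adjusted p 0.001) and Prkca, their kinase marker, by 0.57 (adjusted p 0.00868), while Trpm1, their channel, differed by 0.34 (adjusted p 0.188) and Pcp2 by 0.05 (adjusted p 0.96). The mean log2 level of the bipolar list was 7.38, 7.26, 7.17 and 7.28 at P6, against 6.62, 6.64, 6.66 and 6.72 at P4, without overlap. Its summed linear level, in which the bright Otx2 shared with rods weighs most, overlapped, with 8430, 7365, 7488 and 7959 at P6, against 7044, 7465, 7327 and 7380 at P4. In sorted bulk samples, more cells of a type and more RNA per cell cannot be told apart, and the part of other cells in these results was not tested. Gabrr1, a GABA receptor subunit of bipolar cells that no list held and that was named after its values were seen, had 7.34, 7.65, 7.19 and 7.83 at P6, against 6.02, 6.03, 6.17 and 6.13 at P4.

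Markers of other cells rose in a way that set the P6 arrays apart from each other. Müller glia markers gave 3 calls of 19 (0.485% of all genes), 4 past the adjusted p and 9 higher at an unadjusted p under 0.05. The calls were Rlbp1 (1.17, adjusted p 0.000412), Crym (1.57, adjusted p 0.000551) and Slc1a3 (1.12, adjusted p 0.0309). Slc1a3, the glial glutamate transporter, had levels of 9.78, 8.55, 9.43 and 7.57 at P6, against 7.54, 7.92, 7.71 and 7.67 at P4. P6 replicate 4 lay among the P4 arrays, and the gene was not called once P6 replicate 1 was left out (0.81, adjusted p 0.128). With P6 replicates 1 and 3 both left out, 0 of the 19 were called by limma (4 higher at an unadjusted p under 0.05), where 0.336% of all genes were called higher. The list's summed level was 18433, 11838, 17621 and 13057 at P6, against 11665, 9782, 12402 and 11798 at P4. Defining glial genes Sox9 (0.21), Aqp4 (0.09) and Glul (0.25) did not pass.

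Rgs5, a regulator of G proteins used as a pericyte marker, showed the same split. Its levels were 9.57, 6.85, 10.35 and 6.57 at P6, against 4.95, 5.45, 5.66 and 6.56 at P4. P6 replicates 1 and 3 were high, and replicate 4 was level with the highest P4 array. The difference was 2.68 ± 0.60 (adjusted p 0.0137) and missed the threshold without P6 replicate 1 (2.27, adjusted p 0.0615), and it was 1.06 (adjusted p 0.389) without replicates 1 and 3. It was the single call among 13 pericyte markers (0.485% of all genes rose). Of the 13, 2 passed the adjusted p (1.83% of all genes), the other being Vtn, vitronectin, at 0.81 (adjusted p 0.0036). Pdgfrb differed by 0.03, Cspg4 by 0.09 and Kcnj8 by -0.09, and the list's median was 0.06. Prox1, a homeodomain factor of horizontal and amacrine cells, had 9.44, 8.59, 9.37 and 8.95 at P6, against 8.03, 6.32, 7.24 and 7.36 at P4, and rose by 1.85 ± 0.32 (adjusted p 0.00107), or by 1.73 without P6 replicate 1. It was the single call among 10 horizontal cell markers, where 0.485% of all genes rose. Markers of ganglion cells (14 measured) and amacrine cells (16) gave 0 calls in limma's test, with 5 and 3 higher at an unadjusted p under 0.05. Past the adjusted p were 1 ganglion marker as higher (1.83% of all genes) and 1 amacrine marker as lower (0.532%). Both counts were the same without P6 replicate 1. The ganglion list still summed to 5209 and 4299 in P6 replicates 1 and 3 and to 2458 and 2465 in replicates 2 and 4, against 2101 to 3060 at P4. Gfap, the astrocyte filament, differed by 0.05 ± 0.09.

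**Figure D2:**
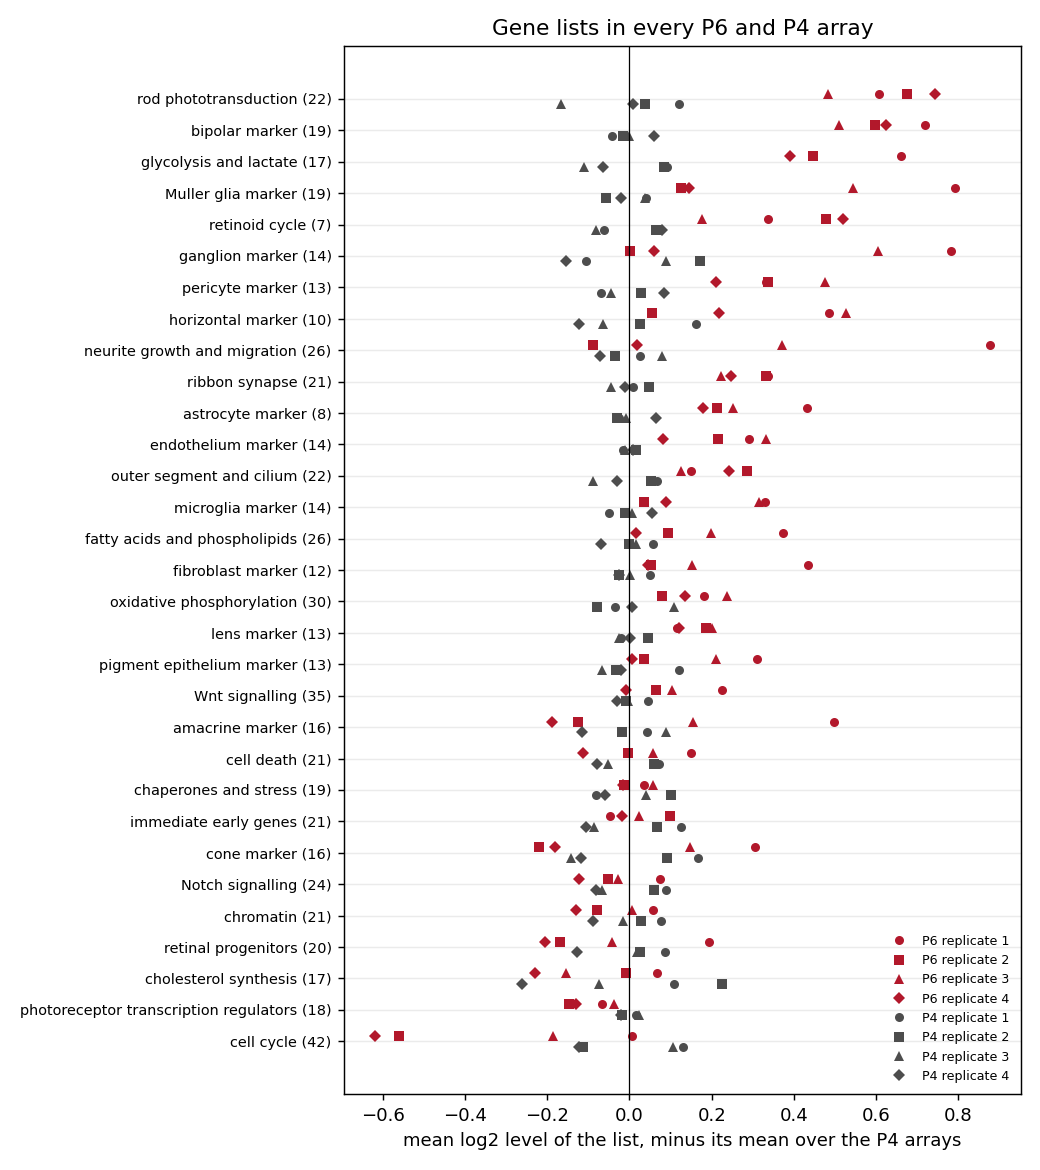
Mean log2 level of each gene list (number of measured genes in brackets) in every P6 array (red, upper) and P4 array (grey, lower), relative to the list's mean over the P4 arrays. All 4 P6 arrays lie right of all P4 arrays for rod phototransduction and likewise for bipolar, Müller glia, pericyte, glycolysis and other lists; for neurite growth, ganglion and Müller glia lists P6 replicates 1 and 3 lie far right of replicates 2 and 4, and for the cell cycle list they lie nearest to the P4 arrays.

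The risen genes of the rod lists, of the marker lists and of neither are described by P6 array, with no test. In no group was the same array highest for every gene. Relative to the P4 mean, the 10 risen rod genes had a median of 1.11 in P6 replicate 1, 1.49 in replicate 2, 1.00 in replicate 3 and 1.33 in replicate 4. Replicate 1 was the highest array for 1 of the 10. The 9 risen markers of other cells had medians of 2.21, 1.20, 1.72 and 1.38 in the same order, and replicate 1 was the highest for 8. The 53 genes in neither had medians of 1.83, 1.12, 1.43 and 1.20, and replicate 1 was the highest for 36. Over all genes replicate 1 was the highest P6 array for 35.6%.

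**Figure D3:**
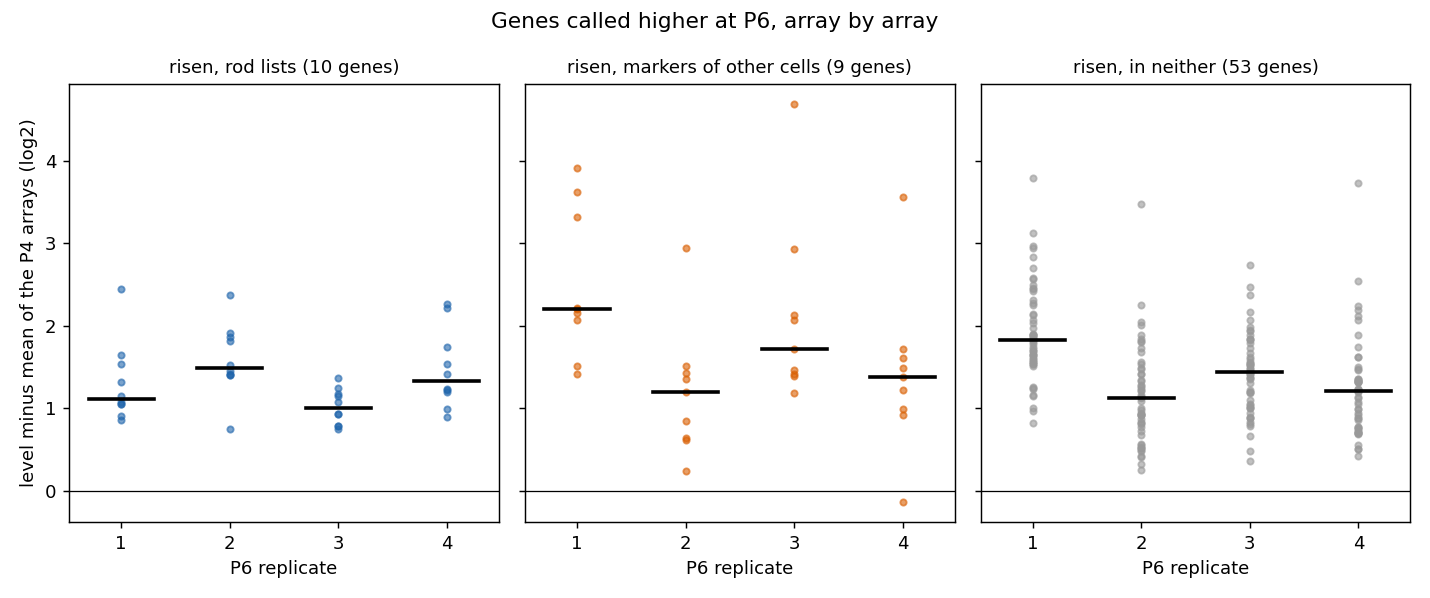
Level of each gene called higher at P6, minus its mean over the P4 arrays (log2), in each of the 4 P6 replicates; points are genes, bars are medians, and 0 is the P4 mean. The medians of the rod genes are highest in replicates 2 and 4 (1.49 and 1.33), those of the other panels in replicates 1 and 3.

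All 10 rod genes kept their call without P6 replicate 1, as did 6 of the 9 markers of other cells and 36 of the 53 in neither. Without replicates 1 and 3 the numbers were 9, 4 and 27, and in a fit on the 8 arrays alone, where 0.229% of all genes rose, they were 7, 2 and 25. The groups were formed from genes already called, so these counts describe the calls and carry no test.

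**Figure D4:**
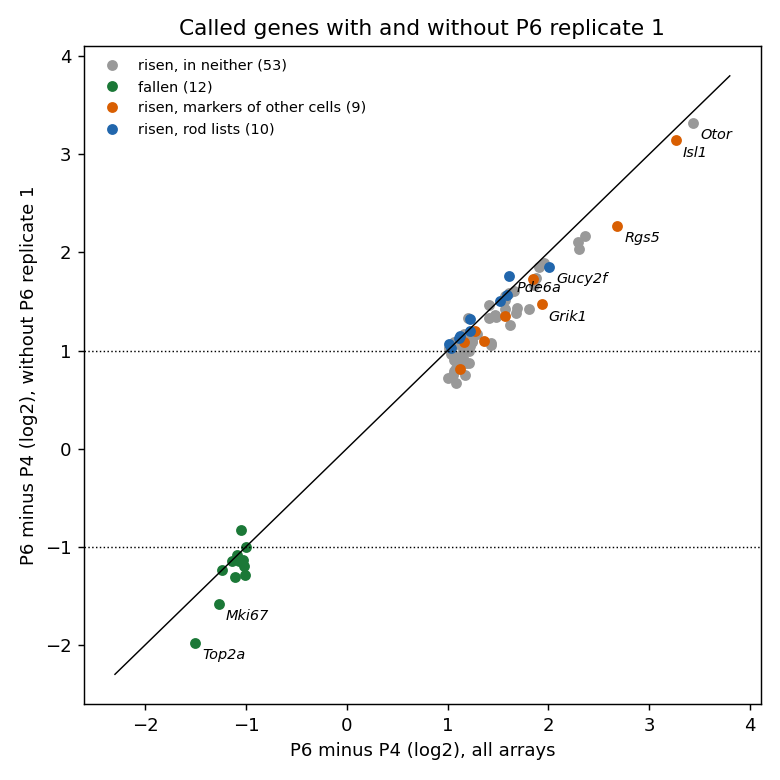
Difference P6 minus P4 (log2) of the 84 called genes from all arrays (horizontal) and without P6 replicate 1 (vertical); the line marks equality and the dotted lines 2-fold. Rod genes lie close to the line, some above it (Pde6a at 1.61 and 1.76) and some below (Gucy2f at 2.00 and 1.85), while many other risen genes, such as Grik1 at 1.93 and 1.47, lie below it.

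Among genes in neither group, several rose with every P6 array above every P4 array. Kcnma1, the pore of the large-conductance calcium-activated potassium channel, had levels of 8.18, 7.86, 7.83 and 8.12 at P6, against 5.98, 6.08, 5.82 and 6.29 at P4, a rise of 1.96 ± 0.15 (adjusted p 1.36e-08). Stom, the membrane protein stomatin, had 9.49, 9.21, 9.68 and 9.26 at P6, against 7.93, 7.85, 7.72 and 7.69 at P4, a rise of 1.61 ± 0.14 (adjusted p 7.57e-08). Amph, the endocytic protein amphiphysin, had 9.20, 9.38, 8.83 and 8.72 at P6, against 7.17, 7.11, 7.30 and 7.90 at P4, a rise of 1.66 ± 0.14 (adjusted p 5.68e-08). Without P6 replicate 1 these rises were 1.89, 1.58 and 1.61. Amph varied more than the other genes here, with an SD of 0.31 at P6 and 0.36 at P4. Ric8b, a chaperone of G protein alpha subunits named after its values were seen, had 10.28, 10.37, 10.04 and 10.30 at P6, against 8.84, 8.67, 8.22 and 8.99 at P4 (1.57 ± 0.12).

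Enzymes and signals also appeared. St8sia1, which makes the ganglioside GD3, rose by 1.87 ± 0.21 and its relative St8sia3, another sialyltransferase, by 1.62 ± 0.35. Apcdd1, an inhibitor of Wnt signalling, had levels of 8.96, 7.82, 8.49 and 8.26 at P6, against 5.67, 5.62, 6.14 and 6.67 at P4. It was the single call among 35 Wnt pathway genes (0.485% of all genes rose), whose median was 0.01. Of the 35, 3 passed the adjusted p as higher (1.83% of all genes), and 2 did without P6 replicate 1 (1.25%). Tgfb2, a growth factor, had 9.64, 7.89, 8.11 and 8.30 at P6, against 6.45, 6.72, 6.57 and 6.98 at P4, with 1.81 ± 0.24 in all arrays and 1.42 without P6 replicate 1. Ndnf, a secreted neurotrophic factor, differed by 2.31 and by 2.03 without that array. Car10, a carbonic anhydrase relative, differed by 2.29 and 2.11, and Pcp4, a calmodulin regulator, by 1.91 and 1.85. Nyap2, a neuronal phosphoprotein that binds PI3 kinase, differed by 1.86 and 1.67. All of these were called both ways. The kinase gene Prkg1 and the synaptic adhesion gene Lrrc4c were highest in P6 replicates 1 and 3. Lrrc4c had 7.09, 5.45, 6.90 and 5.39 at P6, against 4.56, 4.23, 5.04 and 4.28 at P4. Without both replicates its difference was 0.89 (adjusted p 0.164) and that of Prkg1 was 1.12 (adjusted p 0.0941). St8sia3, also highest in replicates 1 and 3, then differed by 1.12 (adjusted p 0.159) and Pcp4 by 1.80 (adjusted p 0.069). St8sia1, Apcdd1, Tgfb2, Ndnf, Car10 and Nyap2 kept their call without both. In the 8 arrays alone Tgfb2 was not called (adjusted p 0.0805).

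Some glycolysis genes were higher. Of 17 measured, 1 rose, Pfkp, a phosphofructokinase, by 1.24 ± 0.15 (2.36-fold, adjusted p 5.5e-06). In all, 6 passed the adjusted p, against 1.83% of all genes, and 4 did without P6 replicate 1, against 1.25%. Hk1, hexokinase 1, had levels of 8.71, 8.88, 8.49 and 8.72 at P6, against 7.97, 8.04, 7.58 and 7.44 at P4 (0.94 ± 0.14, adjusted p 0.000113). Nxnl1, which encodes the rod-derived cone viability factor, differed by 0.92, and by 1.02 without P6 replicate 1, when it was called. The list's median was 0.49, and 0.38 without that array. Oxidative phosphorylation (30 genes) had 0 calls and 0 genes past the adjusted p in limma's test, with 5 higher at an unadjusted p under 0.05 and a median of 0.14. Cholesterol synthesis (17), fatty acids and phospholipids (26), chromatin (21), Notch signalling (24), immediate early genes (21), chaperones and stress (19), cell death (21) and retinal progenitors (20) had 0 calls each in limma's test, at most 6 members higher or 3 lower at an unadjusted p under 0.05, and medians between -0.12 and 0.14. Of 26 neurite genes 1 rose (0.485% of all genes did), the guidance receptor Epha7 (1.41 ± 0.18). In all, 4 passed the adjusted p as higher (1.83% of all genes), and 10 were higher and 3 lower at an unadjusted p under 0.05. The median of that list was 0.36. Without P6 replicate 1 it was 0.11, with 3 past the adjusted p as higher (1.25% of all genes) and 2 as lower. The marker lists of astrocytes, microglia, endothelium, pigment epithelium, red cells, lens and fibroblasts had 0 calls in limma's test, with at most 6 members higher at an unadjusted p under 0.05. Past the adjusted p as higher were 2 of 8 astrocyte markers and 1 each of 14 endothelium, 13 lens and 12 fibroblast markers (1.83% of all genes). Without P6 replicate 1 these counts were 0 in limma's test (1.25%). As lower, 1 of 13 pigment epithelium markers passed the adjusted p (0.532% of all genes), and 1 did without P6 replicate 1. The astrocyte list's mean log2 level was 6.73, 6.51, 6.56 and 6.48 at P6, against 6.28, 6.27, 6.30 and 6.37 at P4.

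Some genes of cell division fell. Of 42 cell cycle genes measured 4 fell, Mki67, Top2a, Tpx2 and Uhrf1, and 0 rose, against 0.0808% of all genes that fell. The list's median was -0.27. Mki67, the proliferation marker, had levels of 9.20, 7.83, 9.01 and 6.97 at P6, against 9.62, 9.08, 10.04 and 9.35 at P4. Again P6 replicates 1 and 3 stood apart from 2 and 4, here as the arrays nearest P4, and the groups overlapped. The difference was -1.27 (adjusted p 0.0315), and -1.59 (adjusted p 0.00414) without P6 replicate 1. Top2a, the topoisomerase of dividing cells, had 7.87, 5.19, 7.45 and 5.26 at P6, against 8.29, 7.44, 8.55 and 7.52 at P4 (-1.51, adjusted p 0.05, just under the threshold before rounding), and -1.98 (adjusted p 0.00281) without P6 replicate 1. Tpx2, a spindle factor, fell by 1.01 and Uhrf1, which maintains DNA methylation, by 1.14. Without P6 replicate 1 the count was 6 of 42 and without replicates 1 and 3 it was 8 of 42, against 0.162% and 0.276% of all genes. In limma's fit on the 8 arrays alone it was 0 of 42, with 11 lower at an unadjusted p under 0.05, where 0.0135% of all genes fell.

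The other 8 falls varied in how evenly the arrays showed them. Ece1, the endothelin-converting enzyme, had levels of 8.96, 8.51, 9.37 and 8.93 at P6, against 10.51, 10.06, 10.37 and 9.76 at P4. Adcy2, an adenylyl cyclase, had 7.92, 7.74, 8.02 and 8.07 at P6, against 8.97, 9.16, 9.13 and 8.84 at P4. Ccdc136 had 9.76, 9.20, 9.88 and 9.33 at P6, against 10.63, 10.58, 10.67 and 10.57 at P4. The 3 fell by 1.23, 1.09 and 1.07, and by 1.24, 1.08 and 1.14 without P6 replicate 1, with no overlap between the groups. Klhl1 and Zmat4 fell by 1.00 and 1.02. The olfactory receptor gene Olfr1044 had 4.96, 5.81, 5.67 and 6.11 at P6, against 6.45, 7.05, 6.65 and 6.59 at P4. It fell by 1.05 and was not called without P6 replicate 1 (-0.82). These 3 genes lost their call in 5 of 19 alternative settings each. Outside the naming rule because their groups overlapped, Cyp39a1 (-1.11, adjusted p 0.0113) and Mfap4 (-1.03, adjusted p 0.0133) fell as well.

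Whether the step P4 to P6 differed from the step before it, P2 to P4, was asked as the difference of the differences in the same fit. The step after P6 did not enter it. By limma's adjusted p and the 2-fold threshold together, the later step was the higher for 21 genes (0.141%) and the lower for 0. In the lower direction 280 genes had an unadjusted p under 0.05, and Adcy2 passed the adjusted p but not the fold (-0.86, adjusted p 0.039). Both steps share the P4 arrays, so a low P4 value raises one step as it lowers the other. Isl1 had a step difference of 3.41 ± 0.46 (adjusted p 0.000616), with a P4 minus P2 difference of -0.15. Kcnma1 had 2.08 (adjusted p 0.000616), Apcdd1 2.93 (adjusted p 0.00707) and Stom 1.53 (adjusted p 0.00707). Among rod genes, Gucy2f (2.20, adjusted p 0.0144), Gngt1 (1.21, adjusted p 0.00639) and Impg1 (1.299, adjusted p 0.041) passed. The other 7 risen rod genes did not. The 3 that passed were higher again at P10 than at P6. Gucy2f differed by 2.75 (adjusted p 2.23e-09), Gngt1 by 0.71 (adjusted p 3.7e-05) and Impg1 by 1.34 (adjusted p 3.97e-07). Gnat1 had a step difference of 0.26 (adjusted p 0.947), and its P4 minus P2 difference was 0.85, which did not pass (adjusted p 0.0993). Step differences were 0.74 to 1.18 in Pde6a, Rdh12, Slc17a7, Cacnb2, Cplx4 and Abca4 (adjusted p 0.0826 to 0.349). Leaving out P4 replicate 1 brought the number down to 8, and leaving out P4 replicate 3 to 9. Otor did not pass (2.97, adjusted p 0.105).

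Levels at the other ages place the step. Gnat1 averaged 7.04 at P2, 7.90 at P4, 9.01 at P6, 12.82 at P10 and 13.22 at P28. Gucy2f averaged 5.48, 5.28, 7.28, 10.03 and 10.86 at the same ages, and Pde6a 6.03, 6.46, 8.07, 10.95 and 11.71. Their P6 values thus sat between the early and the late level. Isl1 took another course, with 6.22 at P2, 6.07 at P4, 9.33 at P6, 7.58 at P10 and 6.24 at P28, and so did Apcdd1, with 6.59, 6.02, 8.38, 6.10 and 5.45. Kcnma1 averaged 6.17, 6.04, 8.00, 6.36 and 6.04. Not every gene outside the rod lists came down: St8sia1 averaged 7.38, 6.81, 8.69, 9.90 and 11.54, and Amph 7.08, 7.37, 9.03, 9.43 and 9.83. Rgs5 averaged 8.10 at P12, after 6.22 at P10. Mki67 averaged 10.49, 9.52, 8.25, 4.53 and 4.36, and Ece1 10.52, 10.18, 8.94, 6.13 and 6.00.

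**Figure D5:**
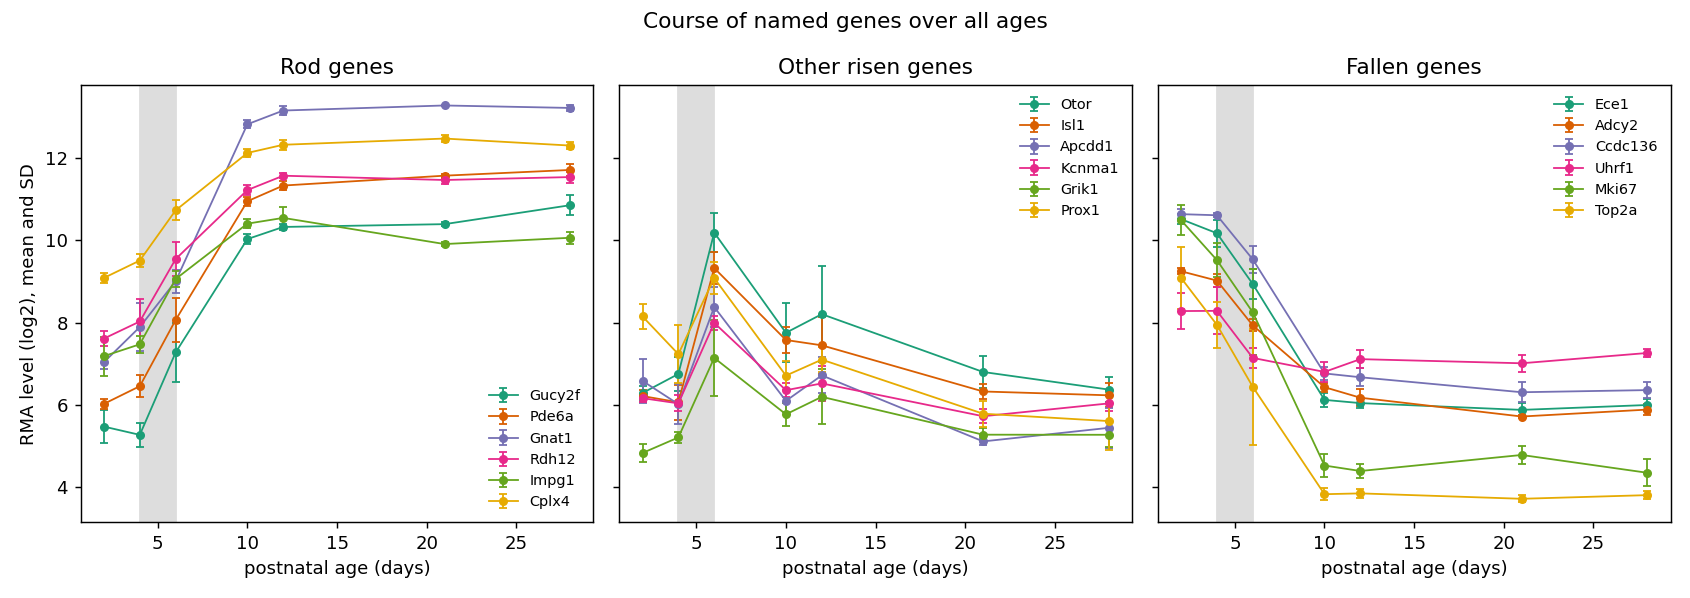
Mean RMA level (log2) with SD at each postnatal age in days (3 or more arrays an age), for 6 rod genes, 6 other risen genes and 6 fallen genes; the shaded band runs from P4 to P6. Rod genes go on to higher levels after P6, for example Gnat1 at 12.82 at P10, while Otor, Isl1, Apcdd1, Kcnma1, Grik1 and Prox1 peak at P6.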

How the data were processed

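Green cells of P6 and P4 retinas were profiled on Affymetrix mouse exon arrays (1.0 ST), amplified from 5 ng of total RNA, per the labels. The authors deposited log2 values per transcript cluster, made by RMA in Affymetrix Expression Console 1.3.1.187 on build mm8, per the submitters' processing notes. RMA subtracts background, sets array distributions alike and summarises probes, so it compresses changes of dim genes, and detection calls were not used here. Of 16755 clusters, 14996 had 1 symbol in GEO's platform annotation, 1019 several and 740 none; 14941 matched RefSeq's table by Entrez number. Where a gene had several clusters (135 genes), the brightest was taken. limma 3.58.1 (R 4.3.3) fitted 7 age means over 28 arrays, with p-values adjusted by Benjamini-Hochberg over 14860 genes; called means adjusted p under 0.05 and at least 2-fold. The method was tested on simulated data. Genes, lists and the comparison were chosen with earlier results of these data known.

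Named were the 20 largest rises and up to 10 largest falls among called genes without overlap (7 such falls), called list members and fixed genes, of which 3 are not analysed here. Alternatives were another normalization, the 8 arrays alone, a replicate block, array weights, other thresholds and filters, leaving out each array, and, chosen after seeing the data, leaving out P6 replicates 1 and 3 together. Deviations of same-numbered P6 and P4 arrays correlated at 0.066 to 0.141, not all over 0.1, so the numbers were not taken to pair samples. The number of arrays limits the precision. Promoter windows are RefSeq's (GRCm38.p6) and figures were drawn with matplotlib 3.10.9.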

Additional observations from a re-analysis of the deposited data

Results flagged for a closer look

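In 9 of 132 groups of 4 arrays (6.82%) the highest or lowest array lay far from the others; chance gives about 1 in 20 such groups. At P6, replicate 1 was far above the others in Car10 (8.84, the nearest at 8.17) and Grik1 (8.54, the nearest at 6.72). P6 replicate 3 was far below in Gucy2f (6.2, the nearest at 7.54) and, by a small gap, in Gnb1 (12.68, the nearest at 12.77), and P6 replicate 4 was far above in Pde6g (11.12, the nearest at 10.62). At P4, replicate 2 was far below the others in Gnat1 (7.02, the nearest at 8.12), Tpx2 (6.39, the nearest at 7.01) and Gfap (6.00, the nearest at 6.18), and replicate 1 was far above in Prdm1 (11.06, the nearest at 10.85). Of 1759 transcript clusters with no symbol or several, which entered no comparison above, 11 were called, 8 of them higher at P6.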

How the results depend on the processing

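No result reversed in 19 alternative settings, and 20 of the 45 named called genes kept their call in every one, among them Gucy2f, Pde6a, Impg1, Cacnb2, Cplx4, Abca4, Isl1, Otor, Kcnma1, Stom and Amph. The 8 arrays alone gave 36 called genes (34 higher, 2 lower), against 84 (72 higher, 12 lower) with all ages in the fit. The 8 arrays are fewer samples, and the fit over all ages shares 1 spread per gene although spreads differed between ages. Gnat1 had an SD of 0.59 at P4 and 0.10 at P10, and Otor 0.41 at P4 and 1.17 at P12. The part of either in the counts was not tested. Gnat1 and Rdh12 were not called in the 8 arrays (adjusted p 0.184 and 0.0851). Sag and Pde6b, past the adjusted p with all ages, had 0.14 and 0.142 there. The adjusted p alone gave 351 (272 higher, 79 lower) and a 1.5-fold threshold 229 (182 and 47). Leaving out 1 array at a time gave 75 to 109 genes, 57 to 102 higher and 6 to 24 lower, and 8 to 31 with a step difference (19 without P6 replicate 1). The lower calls numbered 24 without P6 replicate 1, 7 without P6 replicate 2, 6 without P4 replicate 3 and 41 without P6 replicates 1 and 3 together; the cause was not tested. The cell cycle genes Top2a and Tpx2 lost their call in 10 and 6 settings, Scgn in 9, Slc1a3 in 8, Rgs5 in 6, and Mki67, Gngt1 and Slc17a7 in 5 each. The replicate block gave 83 genes (72 higher, 11 lower) and 15 with a step difference, and each P6 array correlated best with the P4 array of its own number, a hint from the data and not from the design. Normalizing again gave 73 and 81 genes and array weights 71.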

Other observations

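Without P6 replicate 1, 13 genes were called lower that were not called with it. They were Atf1, Ccdc18, Cdh12, Heph, Leprot, Paqr3, Pde7b and 6 whose products are known from dividing cells, named so after their values were seen and with no test of a theme: Cenpe (-1.11, adjusted p 0.0071), Kif23 (-1.01, adjusted p 0.000486), Nuf2 (-1.04, adjusted p 0.00387), Racgap1 (-1.04, adjusted p 0.000727), Hmmr (-1.04, adjusted p 0.046) and Cep55 (-1.05, adjusted p 0.0326). In the same fit 5 genes were newly called higher: Grk1 (1.13), Nxnl1 (1.02), Dpf3 (1.09), Psd2 (1.05) and Slc7a8 (1.07). With all P6 arrays Grk1 and Nxnl1 had differed by 0.99 and 0.92. The median SD of a gene over the P6 arrays was 0.208 with replicate 1 and 0.166 without it, beside 0.167 over the P4 arrays.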
